A study of Mus musculus with 6 samples.

Results

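The ARID family is the set of genes that encode proteins with an AT-rich interactive domain, a stretch of helices that binds DNA. The family as described here comprises 10 genes, chosen by name among the 19270 genes of the deposited comparison, and all 10 were found: *Arid1a*, *Arid1b*, *Arid2*, *Arid3a*, *Arid3b*, *Arid4a*, *Arid4b*, *Arid5a*, *Arid5b* and *Jarid2*. *Arid1b* is the gene that the mouse model deletes. RNA was sequenced from the incisor, which the methods give as its proximal mesenchyme, where the stem cells of this continuously growing tooth reside, from 3 control and 3 mutant mice at 4 days after tamoxifen induction, with induction at 1 month of age. The mutants were *Gli1-CreER;Arid1bfl/fl* mice, in which tamoxifen activates a Cre recombinase made in *Gli1*-expressing cells. The paper gives the *Gli1* lineage as the cells that lose *Arid1b*, so that cells outside this lineage keep their floxed *Arid1b* alleles. The labels give the controls as wild type, whereas the study's methods give *Arid1bfl/fl* mice that received the same tamoxifen injections, so the floxed alleles may be shared by both groups and the Cre belongs to the mutants. The labels do not say which exons are deleted or whether litters were shared.

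ARID proteins act mostly as parts of larger chromatin machines. ARID1A and ARID1B are alternative subunits of the canonical BAF (SWI/SNF) complex, which moves nucleosomes with the energy of ATP, and a complex holds either the one or the other. ARID2 belongs to the related PBAF complex, ARID4A and ARID4B bind the retinoblastoma protein and the SIN3 histone deacetylase complex, and JARID2 accompanies the Polycomb complex PRC2, which methylates histone H3. ARID3A and ARID3B are transcription factors that bind AT-rich DNA, ARID5B works with the histone demethylase PHF2, and ARID5A is also known as an RNA-binding protein that stabilizes the message of interleukin-6.

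The deposited values are the authors' mean per group and gene of a normalized signal, without per-library values, so no SD and no test across mice accompany the values below. A ratio is that of the mutant to the control mean, computed from these 2 means with no pseudocount, and its log2 is negative where the mutants had the lower mean. A ratio past 1.5-fold in either direction served as the mark of a large difference, and it has no replicate check. The upper quartile of the signal lay between 44.57 and 44.58 in all 6 libraries. The lowest value of a library was read as an offset given to every gene, equal to the signal of 1 read. This reading was inferred from the values and not stated by the sources. Under it the group means hold that offset, and the libraries held between about 37100000 and 49600000 reads on these genes. Counting error was then small for the family, with an SD between 0.661% and 3.41% of a group mean, whereas the spread between mice is unknown.

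RefSeq start windows of the *Arid1* pair are shown first because the pair carries the main contrast of these data, one gene targeted and its alternative subunit not, together with that of *Arid5b*, whose window is the least CpG-rich among the members with an entry. Each window covers 250 bases before and 50 bases after a start site of RefSeq, on GRCm38, printed 5′ to 3′ on the gene's strand with each CG dinucleotide in capitals. *Arid1b* is shown from chr17:4994824-4995123 (plus strand), *Arid1a* from chr4:133756720-133757019 (minus strand) and *Arid5b* from chr10:68278677-68278976 (minus strand).
Arid1b: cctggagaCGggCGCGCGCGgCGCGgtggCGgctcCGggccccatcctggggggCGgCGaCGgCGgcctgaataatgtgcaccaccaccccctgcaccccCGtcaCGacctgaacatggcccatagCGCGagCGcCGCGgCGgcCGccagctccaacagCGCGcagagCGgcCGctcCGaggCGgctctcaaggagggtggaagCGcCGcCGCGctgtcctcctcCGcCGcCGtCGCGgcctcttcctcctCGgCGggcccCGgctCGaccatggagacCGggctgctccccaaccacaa
Arid1a: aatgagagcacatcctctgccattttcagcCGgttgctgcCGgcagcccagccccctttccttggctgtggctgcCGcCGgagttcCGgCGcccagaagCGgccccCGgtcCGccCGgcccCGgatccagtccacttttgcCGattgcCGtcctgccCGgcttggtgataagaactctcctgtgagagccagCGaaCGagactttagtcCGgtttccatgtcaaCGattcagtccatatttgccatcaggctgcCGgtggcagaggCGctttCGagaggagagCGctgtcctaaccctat
Arid5b: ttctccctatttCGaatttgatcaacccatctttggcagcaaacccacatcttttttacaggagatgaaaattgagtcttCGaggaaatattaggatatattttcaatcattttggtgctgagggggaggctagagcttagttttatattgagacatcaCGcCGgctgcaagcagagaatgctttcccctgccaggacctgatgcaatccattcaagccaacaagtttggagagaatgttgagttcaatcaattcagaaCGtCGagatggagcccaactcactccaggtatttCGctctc
The RefSeq start of *Arid1b* lies inside the gene as GENCODE annotates it, so that this whole window runs from 492 to 791 bases past the annotated gene start, whereas the printed *Arid1a* and *Arid5b* windows span theirs. The *Arid1b* window held 42 CG dinucleotides and 75.3% G or C, the printed *Arid1a* window 22 and 61.3%, and the *Arid5b* window 7 and 43.3%. A second *Arid1a* window, from chr4:133753936-133754235, held 36 CG dinucleotides and 79.7% G or C, so the pair has no fixed order in base composition. Of the 10 members, 7 had an entry in the promoter table, with 10 windows in all, so some members count more than once. Besides that of *Arid1b*, the second *Arid1a* window, a window of *Arid3b* and those of *Arid4b* and *Jarid2* lie wholly past the annotated gene start. Of these windows, 9 were CpG-rich (at least 50% G or C and an observed over expected CpG ratio of at least 0.6), against 33.5% of the 32851 windows of the table. The *Arid5b* window was the exception, with an observed over expected ratio of 0.497. The letters TATAAA, searched on both strands, were present in 2 of the 10 windows (*Arid5b* and one of the windows of *Jarid2*) and in 13.6% of all windows. These are properties of the reference sequence and do not differ between the groups.

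*Arid1b* was the member that differed most between the groups. The authors' mean for *Arid1b* was 97.6 for control and 38.0 for mutant libraries, a ratio of 0.390 and a log2 ratio of -1.36. The gene spans 353.3 kb of chromosome 17 (4994332 to 5347656 on GRCm38, plus strand), and the sources used here do not say how reads of its deleted exons bear on this value. The remaining signal in the mutants cannot be assigned from whole tissue, because fewer cells that express a gene and less RNA per cell cannot be told apart in bulk samples. *Arid1b* was the 1 member of 10 past 1.5-fold. Across all 19270 genes 5.80% were lower and 7.37% higher in the mutants by more than 1.5-fold. Low genes make up most of these, since among the 10311 genes with a mean over both groups of at least 10 the shares were 0.912% and 2.15%. Of those 10311 genes, 10 had a lower log2 ratio than *Arid1b*. With an SD of 0.02 from counting alone, the log2 ratio of *Arid1b* was far larger than counting error under the reading above.

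*Arid1a*, the alternative subunit to ARID1B in the BAF complex, had nearly equal means in both groups, 176.0 in the controls and 175.9 in the mutants. Its log2 ratio was -0.001, and 0.483% of all genes had a log2 ratio closer to 0. The paper reports that ARID1A expression was expanded in the mutants, in the stem cells and in cells of the proximal dental follicle. Means of whole-tissue RNA do not resolve such regions, so the equal means do not speak to that report. *Arid1a* (chromosome 4, 133679008 to 133756769, minus strand) was the highest member of the family in both groups. Levels were expressed per kb of annotated exon, which makes genes of different length comparable only if the signal is not already divided by length. On that assumption, the controls held 15.3 of *Arid1a* and 7.74 of *Arid1b*. In the mutants these levels per kb were 15.3 and 3.02. The level of *Arid1b* was therefore 0.505 of that of *Arid1a* in the controls and 0.197 in the mutants. The summed level per kb of the pair was 23.1 in control and 18.3 in mutant mice, and *Arid1b* made up 33.5% and 16.5% of it. With the longest annotated transcript as the length, the share of *Arid1b* was 28.6% and 13.5%.

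**Figure D1:**
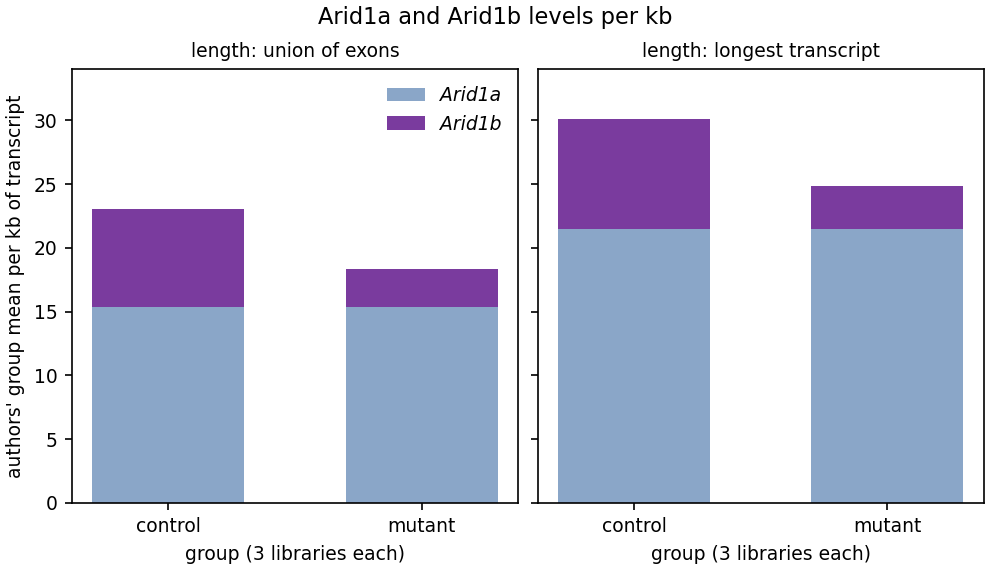
Stacked bars give the authors' group mean per kb of *Arid1a* and *Arid1b* in the control and mutant groups (3 libraries each, no error available), with the union of exons as the length on the left and the longest transcript on the right. The *Arid1a* part has nearly the same height in both groups, and the *Arid1b* part is shorter in the mutants, at 3.02 against 7.74 per kb of exon on the left.

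*Arid2*, the ARID subunit of the PBAF complex, was the second highest member, with 137.8 in the controls, 140.7 in the mutants and a log2 ratio of 0.03. It lies on chromosome 15 from 96287518 to 96404992. Its level per kb of exon was 12.8 in the controls and 13.1 in the mutants. *Arid1a* had 1.20 and 1.17 times this level.

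The *Arid4* pair, whose proteins join the SIN3 deacetylase complex, also had similar means in both groups. *Arid4a* (chromosome 12, 71015990 to 71098592) had 49.6 in the controls and 51.0 in the mutants, a log2 ratio of 0.04. *Arid4b* (chromosome 13, 14063232 to 14199603) had 85.8 and 86.5, a log2 ratio of 0.01. The exons of *Arid4b* share 257 bases (1.51% of its exon length) with *Ggps1* on the opposite strand, which had means of 72.6 and 69.4. The sources used here do not say whether reads were counted by strand, so reads of that stretch cannot be assigned to one of the genes. *Jarid2*, the accessory subunit of PRC2 (chromosome 13, 44729474 to 44921643), had 51.6 in the controls and 50.6 in the mutants, a log2 ratio of -0.03. *Arid1a*, *Arid2*, *Arid4a*, *Arid4b* and *Jarid2* were the 5 members whose log2 ratio lay within 0.05 of 0 on the authors' scale. With the total signal made equal in both groups, which adds 0.06 to every log2 ratio, only *Jarid2* lay within 0.05 of 0.

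The remaining 4 members, those of the *Arid3* and *Arid5* subfamilies, lay further from 0 on the authors' scale but short of 1.5-fold. *Arid5a* (chromosome 1, 36307733 to 36324029) had means of 9.16 (controls) and 6.64 (mutants), a ratio of 0.726 and a log2 ratio of -0.46. It was the lowest member in both groups and the only one with a mean over both groups under 10. Among all genes 82.1% had a log2 ratio closer to 0, in a pool whose large ratios come mostly from low genes. Of the 10311 genes that reach a mean of 10, a set that leaves out *Arid5a*, 95.2% had one closer to 0. Neither set was matched to the level of *Arid5a*. *Arid5b* (chromosome 10, 68092520 to 68278740, minus strand) had means of 116.0 and 98.5, a ratio of 0.849 and a log2 ratio of -0.24.

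*Arid3a*, named Bright for its role in antibody-producing B cells (chromosome 10, 79927043 to 79955018), had means of 58.6 (controls) and 48.7 (mutants), a ratio of 0.832 and a log2 ratio of -0.27. *Arid3b* (chromosome 9, 57790353 to 57836793, minus strand) went the other way, with means of 10.1 and 11.5, a ratio of 1.15 and a log2 ratio of 0.20. Some 360 bases (4.51%) of the *Arid3b* exons are shared with the antisense gene *Gm17231*, which was not analysed here. For scale, the 5th and 95th percentiles of the log2 ratio were -0.30 and 0.33 over the 10311 better-expressed genes, a range that held *Arid3a*, *Arid3b* and *Arid5b*. The spread between mice is unknown for these 4 genes, so the differences are described and not tested.

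**Figure D2:**
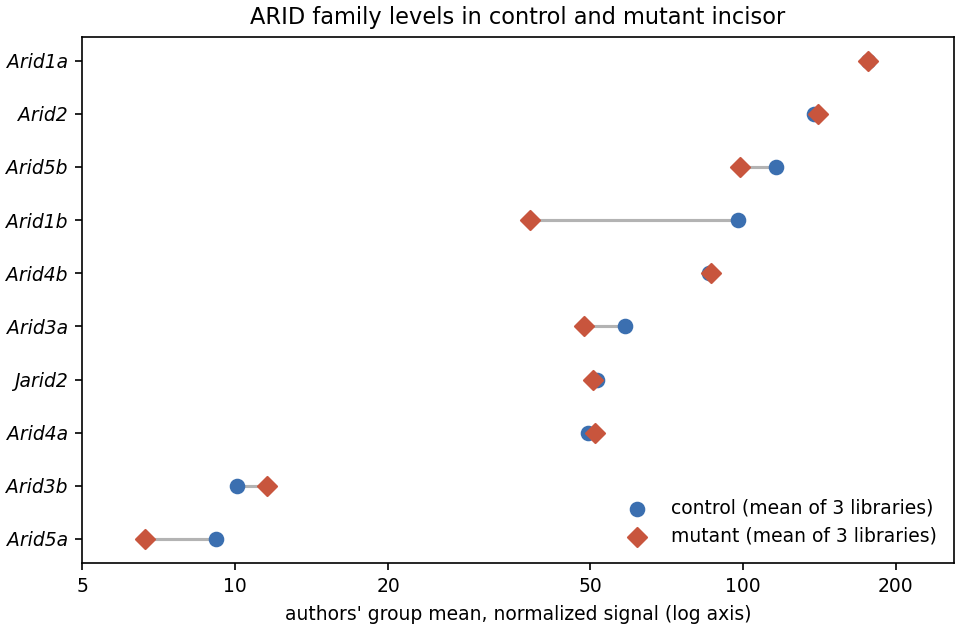
Points give the authors' mean of the normalized signal in the 3 control (circles) and 3 mutant (diamonds) libraries for each ARID gene, ordered by the control mean on a log axis, with no error available. The long line belongs to *Arid1b* (97.6 in the controls, 38.0 in the mutants), and shorter lines mark *Arid5a*, *Arid5b*, *Arid3a* and *Arid3b*.

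Of the 9 members other than *Arid1b*, 4 had a higher and 5 a lower mean in the mutants, with a median log2 ratio of -0.001 against 0.002 over all genes. With the total signal made equal, *Arid1a* (0.06) and *Jarid2* (0.03) turned positive, for 6 higher and 3 lower. Their log2 ratios ran from -0.46 for *Arid5a* to 0.20 for *Arid3b*, and none was past 1.5-fold. The signal summed over these 9 genes was 694.7 in control and 670.2 in mutant mice, and with *Arid1b* it was 792.2 and 708.2. Within each subfamily the levels per kb of exon were unequal in both groups. *Arid3a* had 8.35 times the level of *Arid3b* in the controls and 6.05 times in the mutants, and *Arid5b* had 15.8 times the level of *Arid5a* in the controls and 18.5 times in the mutants. *Arid4b* stood at 0.573 of *Arid4a* in the controls and at 0.561 in the mutants. This order of the *Arid4* pair depends on the length taken for the genes, since with the longest transcript as the length *Arid4b* had 14.6 per kb and *Arid4a* 9.92 per kb in the controls.

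**Figure D3:**
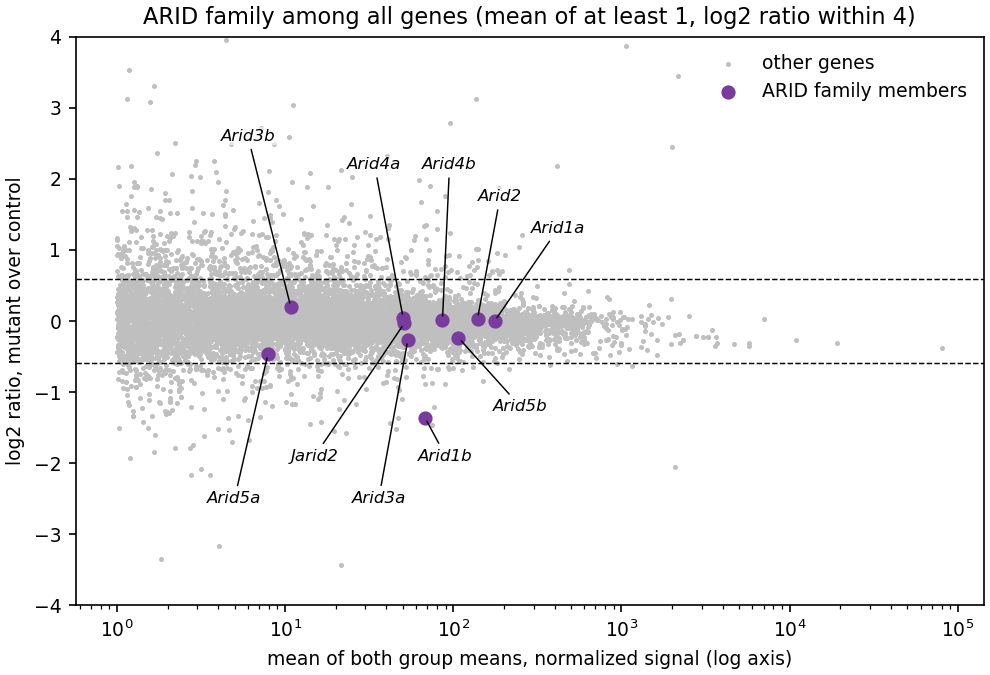
Each grey point is a gene with a mean over both groups of at least 1 and a log2 ratio within 4, plotted as the log2 ratio of the mutant over the control mean against the mean of both (log axis), with the 10 ARID genes in purple and dashed lines at 1.5-fold. *Arid1b* lies below the lower line at -1.36, and the other 9 lie between the lines, from -0.46 to 0.20.

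In the controls, the order of the family by level per kb of exon was *Arid1a*, *Arid2*, *Arid5b*, *Arid3a*, *Arid4a*, *Arid1b*, *Jarid2*, *Arid4b*, *Arid3b* and *Arid5a*, from 15.3 down to 0.730. In the mutants *Arid1b* was at rank 8 in place of rank 6, *Jarid2* and *Arid4b* were each 1 rank higher, and *Arid3a* and *Arid4a* had exchanged ranks 4 and 5. Neighbours in this order could not be compared beyond their spread, because the spread is unknown. *Arid5b* at 11.5 and *Arid3a* at 10.5 per kb, or *Jarid2* at 5.32 and *Arid4b* at 5.06 per kb, are examples of close neighbours in the controls.

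Other mouse genes encode an ARID domain as well, among them the KDM5 demethylases of histone H3 lysine 4. *Kdm5a* had means of 140.0 (controls) and 138.5 (mutants), and *Kdm5b* 127.0 and 136.6, with log2 ratios of -0.02 and 0.10. The X-linked *Kdm5c* had 138.4 and 109.8, a log2 ratio of -0.33, and its Y-linked counterpart *Kdm5d* had 0.0434 in the controls and 27.4 in the mutants. The lowest mean of the control group was 0.0259, so *Kdm5d* was near the lowest value there. *Arid3c* was not analysed here.

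The groups thus differed in sex-linked transcripts, and sex is not among the labels. *Xist*, the RNA that silences one X chromosome in female cells, had means of 3368 (controls) and 813.8 (mutants). The 4 Y-linked genes examined were all past 1.5-fold higher in the mutants. Their means ran from 0.0259 to 0.0434 in the controls, at or near the lowest value, and from 25.3 to 65.3 in the mutants. The control group thus held almost no Y-linked RNA, and the mutant group held both kinds. Group means do not give the sex of each library. Genotype and sex-linked RNA cannot be told apart in this design, and the part of the latter in the values of the ARID family was not tested. Markers of cell types differed as well, and epithelial ones were present in both groups of a tissue given as mesenchyme. Of 11 markers of dental epithelium, 10 were past 1.5-fold higher in the mutants. The median log2 ratio of the 11 was 1.22, with a summed signal of 1587 (controls) and 10290 (mutants), led by the enamel genes *Amelx*, *Ambn* and *Enam*. All 10 listed markers of dental mesenchyme were in the table, 7 with a lower mean in the mutants, with a median of -0.23 and a summed signal of 27658 and 22456, led by the collagen genes *Col1a1* and *Col1a2*. The 6 erythroid markers were all past 1.5-fold lower, with a median of -1.49 and a summed signal of 64.0 and 22.3. The 5 macrophage markers had a median of 0.22, with a summed signal of 152.8 and 178.4. The medians of endothelial (0.05), pericyte and smooth muscle (-0.17), glial (-0.10), muscle (-0.60), and odontoblast and bone markers (-0.27) came from lists of 4 or 5 genes. Of the 5 muscle markers, 3 were lower and 1 higher by more than 1.5-fold, all with group means of at most 2.50. Past 1.5-fold in the other lists were *Dmp1*, lower at -1.52, among the odontoblast and bone markers, and 1 low glial marker, which was higher. Lymphocyte markers, which bear on *Arid3a*, were near the floor, with 3 of 6 in the table, a median of 0.14 and a summed signal of 1.24 (controls) and 1.37 (mutants). The part of these cell types in the ARID values was not tested.

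The partners of the ARID proteins were examined as lists of complex subunits and related genes. Together these lists hold 51 genes of the table, of which 1 was higher and 0 were lower by more than 1.5-fold, against 7.37% and 5.80% of all genes. Of these 51 genes, 46 had a mean of at least 10, and over all genes with such a mean the shares were 2.15% higher and 0.912% lower, so the count of partners is near the background. Their median log2 ratio was 0.01, and 46 of the 51 lay within 0.2 of 0. For scale, 60.6% of all genes, and 80.5% of those with a mean of at least 10, lay closer to 0 than *Arid3b* at 0.20.

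The BAF complex itself is built around an ATPase and a core of shared subunits. Of 18 listed core and ATPase subunits, 17 were in the table, with a median log2 ratio of -0.02. The ATPases *Smarca2* and *Smarca4* had means of 239.5 and 156.9 in the controls and 227.8 and 154.6 in the mutants. The scaffold subunit *Smarcc2* had 178.1 and 173.9. The exception was *Bcl11b*, which encodes a zinc finger factor, with 33.6 in the controls, 52.6 in the mutants and a log2 ratio of 0.65. The study singled out *Bcl11b* from these same libraries, and it also reports a rise of this gene by single-cell RNA sequencing and in situ hybridization. *Bcl11a*, the relative of *Bcl11b*, had 77.5 and 106.3, a log2 ratio of 0.46, which is short of 1.5-fold.

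The 3 *Dpf* genes, whose proteins occur in the ARID1-containing complex, all had lower RNA means in the mutants without passing 1.5-fold, with a median of -0.28. The most abundant of them, *Dpf2*, had 110.1 in the controls and 102.2 in the mutants, a log2 ratio of -0.11, and *Dpf1* and *Dpf3* had means under 10. For ARID2, the 3 PBAF subunits *Pbrm1*, *Brd7* and *Phf10* had log2 ratios of -0.07, 0.09 and 0.10. The non-canonical BAF complex contains no ARID protein, and its subunits *Brd9*, *Bicra* and *Bicral* had a median of -0.07. The list also held older symbols of *Bicra* and *Bicral*, which the table does not use.

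The 15 genes listed for the SIN3-HDAC complex and ARID4 had a median log2 ratio of 0.02, in a range from -0.12 to 0.20. At the upper end was *Rb1*, the retinoblastoma gene, whose protein binds ARID4A and ARID4B and is not a subunit of that complex. The most abundant genes of the list were *Rbbp4*, *Rbbp7* and *Hdac2*, with 233.1, 204 and 143.5 in the controls and 228.3, 219.2 and 140.6 in the mutants. *Rbbp4* and *Rbbp7* also belong to PRC2, the partner of JARID2. The 10 PRC2 genes had a median of 0.08 and a range from -0.05 to 0.38, where the catalytic subunit *Ezh2* had 47.1 and 47.5 and the upper end was *Phf19*, with means of 3.38 and 4.40. *Phf2*, which works with ARID5B, had 99.2 and 102.7, and its relative *Phf8* had 48.5 and 44.3. No gene of these 3 lists was past 1.5-fold.

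**Figure D4:**
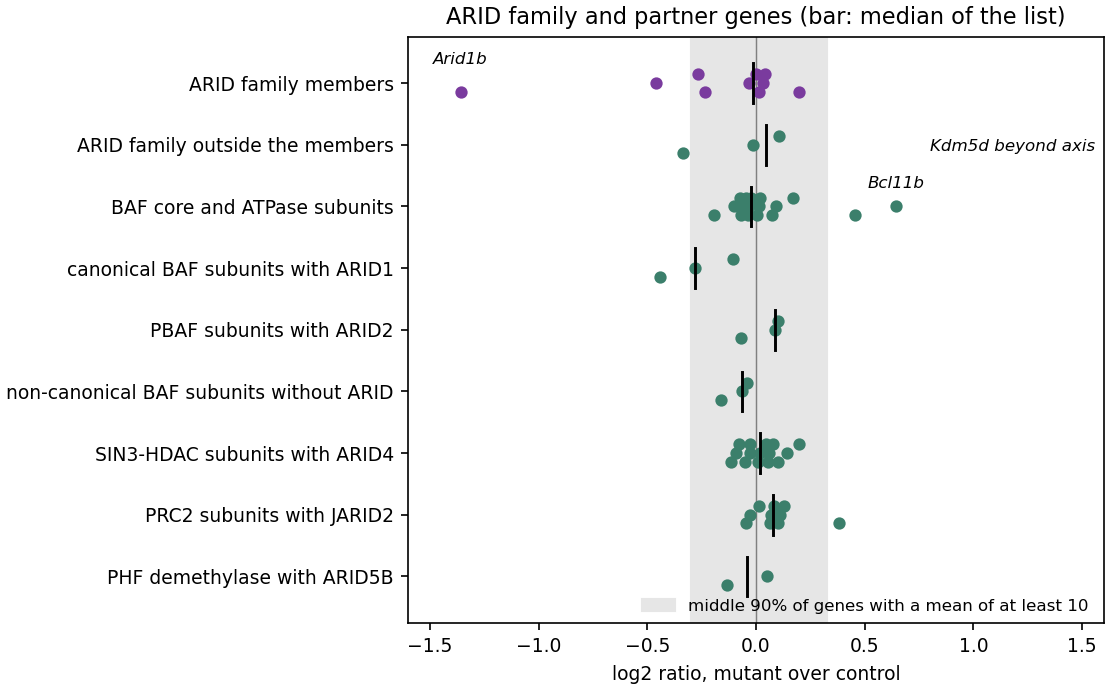
Each point is the log2 ratio of the mutant over the control mean of 1 gene, for the 10 ARID genes (purple) and the lists of relatives and partners (green), with a black bar at the median of each list and a grey band between the 5th and 95th percentiles of the 10311 genes whose mean was 10 or more. *Arid1b* at -1.36 and *Bcl11b* at 0.65 lie past 1.5-fold, and *Kdm5d* lies beyond the axis.

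The 5 genes of the table on either side of *Arid1b* on chromosome 17 comprised *Gm49797*, *Gm6475*, *Tiam2*, *Tfb1m* and *Cldn20* at lower and *Tmem242*, *Ldhal6b*, *Zdhhc14*, *Snx9* and *Synj2* at higher coordinates. Of these 10, 8 lay within 1.5-fold, with log2 ratios from -0.22 to 0.11. Over all genes 5.80% were lower and 7.37% higher by more than 1.5-fold, and the neighbours were not tested against these shares. The nearest gene, *Tmem242*, lies 63.2 kb beyond the end of *Arid1b* and had means of 41.0 (controls) and 39.8 (mutants). *Snx9*, a sorting nexin, had 62.3 and 61.6, and *Tiam2*, an exchange factor for RAC, had 64.5 and 57.6. The 2 genes past 1.5-fold, both higher in the mutants, were low. *Cldn20*, a claudin of epithelial tight junctions whose end lies 1461 kb before *Arid1b*, had 0.305 in control and 3.03 in mutant mice, and it differed in the same direction as the epithelial markers above, whose part in this value was not tested. *Ldhal6b* had 0.146 and 0.282, which is 5.65 and 12.2 times the lowest mean of each group.

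**Figure D5:**
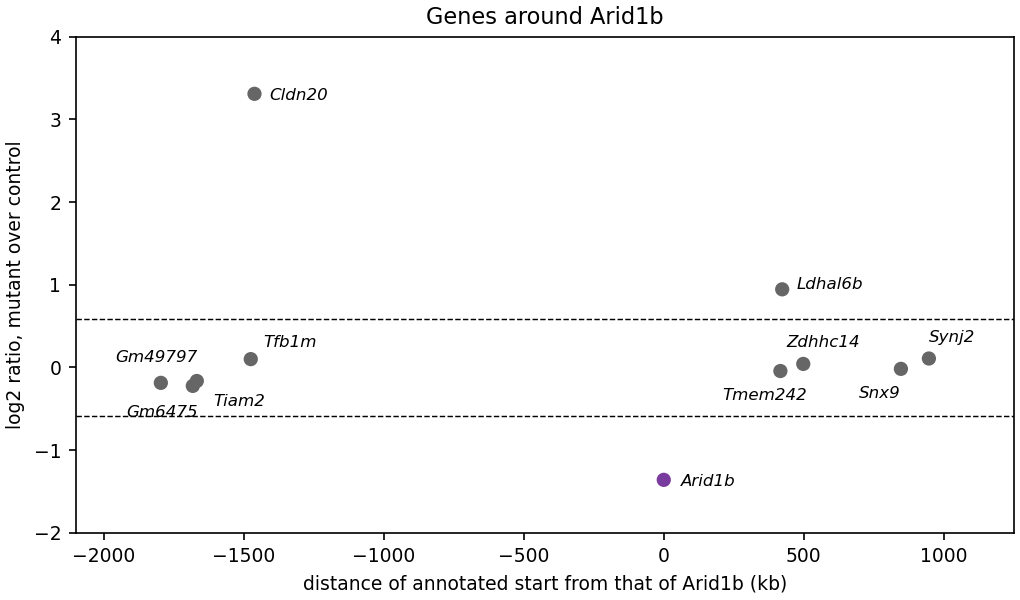
Points give the log2 ratio of the mutant over the control mean of *Arid1b* (purple) and its 10 neighbours in the table (grey) against the distance of their annotated starts in kb, with dashed lines at 1.5-fold. *Arid1b* lies at -1.36, 8 neighbours lie between the lines, and *Cldn20* and *Ldhal6b* lie above them.

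Genes with a pattern like that of *Arid1b* were sought among the 4542 genes whose mean over both groups lay between 33.9 and 135.6, by the difference of log2 ratios, a likeness that rests on 2 group means. The 5 nearest were *Gldn*, *Adam23*, *Myo5b*, *Gli1* and *Dmp1*, with differences from 0.01 to 0.16. *Gldn* (gliomedin, a protein of nerve nodes) had means of 67.2 (controls) and 26.1 (mutants), *Adam23* 61.1 and 22.5, and *Myo5b*, an unconventional myosin, 109.3 and 39.8. *Dmp1*, a matrix protein of dentin and bone, had 68.1 and 23.7. *Gli1*, the Hedgehog effector whose gene drives the Cre, had 106.4 and 46.1, a log2 ratio of -1.21. The Cre is carried by the mutants, so that a difference in *Gli1* that comes with this allele and one that follows deletion of *Arid1b* cannot be told apart.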

How the data were processed

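RNA-seq libraries of the proximal incisor from 3 control and 3 mutant mice were analysed from the deposited tables. Per the methods, Partek Flow served for trimming, for alignment to mm10 and for the comparison of groups, and the submitters' processing notes name TopHat2 2.0.8. How reads were counted and normalized is not given in the sources used here. The deposited values are a normalized signal, as the authors' mean per group and gene, and a summary per library in which 2 other numeric columns were not used. The mean of the group means over all genes equals the mean of the library means, so the group means are plain averages. The lowest value is shared by several genes, which does not settle whether values are divided by length. That they are not was assumed for the levels per kb.

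The authors' p-values, FDR, ratio and fold change, and the table filtered by them, hold their own comparison and were not used. Ratios of the 2 group means and their log2 were computed without a pseudocount in Python 3.11.15 with numpy 2.4.6 and pandas 2.3.3, checked on simulated data, and drawn with matplotlib 3.10.9. Exon lengths and positions come from GENCODE vM21 on GRCm38 (mm10), where 18840 gene names matched 1 gene. Promoter windows come from RefSeq, and 3 members had no entry. Proteins were not analysed here. Named genes were the members, list genes past 1.5-fold with a mean of at least 10, up to 3 abundant genes per list, the genes around *Arid1b* and the 5 genes most like it, and others (*Smarca4*, *Bcl11a*, *Col1a1*, *Col1a2*, *Ggps1*, *Gm17231*, *Dpf1*, *Dpf3*, *Rb1*, *Phf19* and *Ezh2*) were named after their values were seen. The members and lists were chosen with earlier results of these data known.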

Additional observations from a re-analysis of the deposited data

How the results depend on the processing

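The log2 ratios of the 10 members, the count of members past 1.5-fold, the order per kb and the partner lists were recomputed under other settings. A log2 ratio or median was read as moved when it shifted by more than 0.1 or crossed 1.5-fold. A pseudocount of 1, centring on the median of all genes (a shift of -0.002) and equal total signal in both groups (a shift of 0.06) moved none of the 10 log2 ratios by more than 0.1, and *Arid1b* stayed past 1.5-fold in each. Equal total signal turned the sign of *Arid1a* (0.06) and *Jarid2* (0.03), neither past 1.5-fold, so that 6 of the 9 other members were higher and 3 lower. A fold threshold lower than 1.5 gave 2 members in place of 1, *Arid5a* (ratio of 0.726) being the one added. A threshold of 2, the restriction to members whose mean was 10 or more and the scalings and pseudocount above kept the count at 1. Shares of all genes were computed for 1.5-fold only, so the member counts at the other fold thresholds have no background. With the longest transcript as the length, the ranks per kb in the controls were 4 for *Arid4b*, 5 for *Arid3a*, 6 for *Arid4a*, 7 for *Arid1b* and 8 for *Jarid2*, and the other 5 ranks were the same. The mean of the KDM5 list was 2.26 in place of its median of 0.04, and that mean rests on *Kdm5d*, which was near the lowest value in the controls. The median of the DPF list was -0.11 with *Dpf2* as its only gene with a mean of at least 10. The other list values shifted by at most 0.1.

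Leaving out a library was not possible with 1 mean per group. No paired analysis was possible because the table gives no values per library, so the shared replicate numbers of the labels could not be used. The depth limits *Arid5a* and *Arid3b* most, with counting SDs of the log2 ratio of 0.07 and 0.06 under the inferred reading of the signal as reads.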
